A study of Mus musculus with 18 samples.

Results

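The miRNAs described here are those of the families miR-9, miR-132, miR-212, miR-147 and miR-187, chosen by name in a small RNA sequencing data set of mouse microglia-like cells. The deposited values list 2134 features, each either a hairpin precursor (written mir) or a mature arm cut from it (written miR), and 17 of them belong to these families, 7 hairpins and 10 mature arms. In the files their names carry the prefix for mouse, as in mmu-mir-132, mmu-mir-212, mmu-mir-147 and mmu-miR-187-3p, and the prefix is left out below. The rule uses the names alone.

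BV-2 is an immortalized mouse microglial cell line, so all samples come from the same line and none from tissue. It was kept untreated (Ctrl, which received at most the ethanol vehicle) or given LPS, a bacterial cell wall component that activates Toll-like receptor 4 (TLR4), at 100 ng/ml for 4 h. The other groups received the plant cannabinoids cannabidiol (CBD) or tetrahydrocannabinol (THC) at 10 μM for 6 h, alone or from 2 h before LPS (CBD+LPS and THC+LPS). Each of the 6 groups had 3 samples, numbered 22 to 39 over the series with each number used once, and since nothing in the labels says that they were separate cultures, the p-values below measure the spread between these samples. CBD and THC have the same atoms in another arrangement, THC with a closed pyran ring where CBD has an open one with a free phenol group.

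A mature miRNA pairs with messenger RNAs mainly through its seed, the stretch that starts at its second base, and lowers their translation or stability. Toll-like receptor signalling changes the making of a group of miRNAs in macrophages and microglia, and several of these act back on the pathway. miR-155 and miR-146a are the most studied, the first promoting and the second restraining the response. miR-132 and miR-212 are made from a common transcript driven by the factor CREB, and miR-132 is known to target the acetylcholine-degrading enzyme Ache and the coactivator Ep300. miR-147 is known as a TLR-induced miRNA that restrains cytokine output, miR-187 as an IL-10-induced one that limits TNF, and miR-9 as one that targets the NF-κB subunit gene Nfkb1.

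Sequences from RefSeq (GRCm38.p6) were found for 7 of the 10 mature arms. The arms of miR-132 and miR-212, which held most of the reads, and the main arm of miR-9 are shown, with the seed (bases 2 to 8) in capitals.
miR-132-3p: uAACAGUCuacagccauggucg
miR-212-3p: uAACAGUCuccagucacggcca
miR-132-5p: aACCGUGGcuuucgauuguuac
miR-212-5p: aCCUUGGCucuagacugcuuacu
miR-9-5p: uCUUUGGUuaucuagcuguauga
miR-132-3p and miR-212-3p carry the same seed, and among the 1679 mature mouse miRNAs of the reference no other has it. Position by position 17 of their 22 bases are identical, and the substitutions from miR-132-3p to miR-212-3p, counted from the 5′ end, are A10C, C14U, U17C, U20C and G22A. The 5p arms of the pair have seeds of their own, ACCGUGG and CCUUGGC, each found in 1 mature miRNA of the reference.

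The genes of the pair lie side by side on the plus strand of chromosome 11 (GRCm38). Mir212 spans 75173388 to 75173478 and Mir132 spans 75173682 to 75173747, with 203 bases between them, both within the transcript 1700016P03Rik and outside its exons. Their hairpins are given because both arms of each were measured, and the capitals mark the arms.
Mir132: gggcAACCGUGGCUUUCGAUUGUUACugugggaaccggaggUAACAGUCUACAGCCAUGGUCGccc
Mir212: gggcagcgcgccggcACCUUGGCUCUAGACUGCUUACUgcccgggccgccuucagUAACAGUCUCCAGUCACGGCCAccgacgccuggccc
Mir147 lies on chromosome 2 at 122640803 to 122640881, in an untranslated exon region of the protein-coding gene AA467197. miR-9 comes from several loci with the same mature arms, Mir9-1 on chromosome 3 (88215598 to 88215686, in the long noncoding RNA Gm3764, outside its exons), Mir9-2 on chromosome 13 (83738814 to 83738885, in an exon of the long noncoding RNA C130071C03Rik) and Mir9-3 on chromosome 7 (79505264 to 79505353, in Mir9-3hg, outside its exons). Mature miR-9 reads therefore cannot be assigned to a single locus.

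The values are CPM, that is, reads scaled to library size after edgeR's TMM correction, and they were whole multiples of a single read, so that reads could be recovered. The samples held between 442718 and 1057147 reads, with a median of 773271, and 3 reads, taken as the smallest level the depth can show, corresponded to 2.98 to 6.38 CPM (counting error alone). Among markers of cell types, the blood lineage miRNAs had means of 8836 CPM (miR-142-5p), 8645 (miR-146a-5p), 4608 (miR-155-5p), 1979 (miR-142-3p) and 121 (miR-223-3p). Of the neuronal ones miR-124-3p had 4 reads in all samples together, miR-128-3p a mean of 494.5 CPM and miR-129-5p a mean of 44.2 CPM. The oligodendrocyte markers miR-338-3p and miR-219-5p had means of 69.7 and 3.93 CPM. For fibroblasts and smooth muscle, miR-143-3p and miR-145a-5p had 20.2 and 0.225 CPM. Muscle, liver and erythroid markers averaged at most 0.902 CPM. The libraries differed in composition. Samples 22 (Ctrl), 27 (THC+LPS), 30 and 36 (both CBD) had 0.151% to 0.361% of their reads on 3 hairpins (mir-6236, mir-6240, mir-6243), against 1.20% to 4.55% in the other 14 samples. Fold changes of miR-132 and miR-212 are given below with and without these samples, and for miR-187 the level in them.

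The 5 families together took 12571 of 13670564 reads, or 0.0920%. Of these, 61.7% belonged to miR-132, 30.1% to miR-212, 6.13% to miR-187, 1.15% to miR-9 and 0.947% to miR-147. The most abundant feature was miR-132-3p, with a mean of 511 CPM over the 18 samples and rank 124 of 2134, followed by miR-212-3p (mean 159.9 CPM), miR-212-5p (122 CPM), miR-132-5p (72.4 CPM) and miR-187-3p (42.0 CPM). The remaining features averaged at most 10.1 CPM, and 10 of the 17 had fewer than 100 reads over all samples. Counts on mature arms of nearly equal length can be set side by side in this way, although capture of small RNAs during library preparation can differ between sequences. The hairpins mir-147, mir-9-2 and mir-9-3 had 8, 1 and 3 reads in total and stayed under the minimum of 10, so 14 members were tested with limma on log2(CPM + 1) among 1363 features.

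None of the 14 members passed the test for an LPS effect, while some better known TLR-responsive miRNAs rose in the same samples. The study had already reported features of miR-155, miR-146a, miR-21a, miR-221 and miR-222 as raised by LPS in these samples. Lists were chosen with earlier results known, so the rise of these miRNAs is no independent check. In the LPS effect pooled over the cannabinoid treatments (9 samples with LPS against 9 without), 21 of the 1363 features passed an adjusted p of at most 0.1, or 1.54%, and 0 of the 14 members did. At an unadjusted p under 0.05 there were 2 members, miR-212-3p and miR-212-5p, both lower with LPS, beside 6.97% of all features. With edgeR and DESeq2 on the recovered reads 0 members were called as well. Of the 14 log2 fold changes 7 were below 0 and 7 above, with a median of 0.11 against 0.03 over all features. Of the list of 10 miRNAs known to be induced by TLR ligands, 28 of 30 features were tested, and 13 were upregulated and 0 downregulated. Among the 13 were miR-155-3p (log2 fold change 4.84), miR-155-5p (3.27), miR-146a-3p (2.15), miR-21a-5p (0.83) and miR-221-5p (1.31). All 13 belong to miR-155, miR-146a, miR-21a, miR-221 and miR-222. No tested feature of the listed miR-146b, let-7e, miR-99b, miR-125a and miR-27b passed, and the let-7e hairpin stood at -0.80 (adjusted p 0.309, limma). For miR-99b the hairpin alone was tested. The hairpin mir-146a (adjusted p 0.252, limma) and the arm miR-222-3p (adjusted p 0.927, limma) did not pass either. None of the 11 features of the list of repressed or variable ones, namely miR-125b, miR-223 and let-7i, passed the test. The separate comparisons with LPS used another criterion, an unadjusted p from limma of at most 0.005 with at least 1.5-fold. By it 11, 10 and 10 features of the induced list were upregulated on the untreated, CBD and THC backgrounds. Over all 1363 features 21, 22 and 19 were called there, in either direction.

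**Figure D1:**
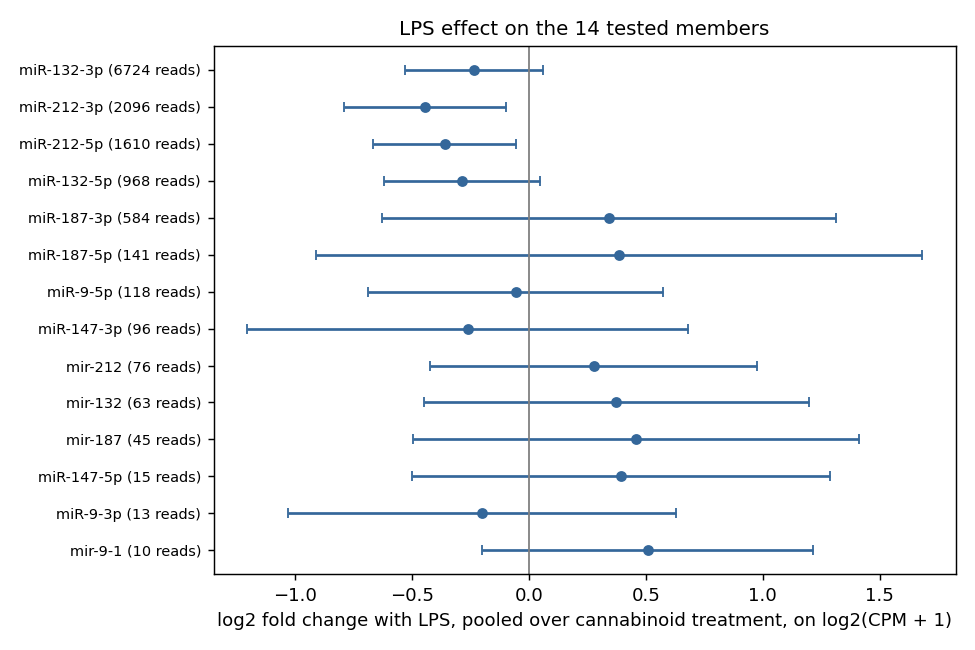
Log2 fold change with LPS, pooled over the cannabinoid treatments, for the 14 tested members in order of their total reads, on the log2(CPM + 1) scale. Points are limma estimates from 18 samples and bars are 95% intervals. The intervals of miR-212-3p and miR-212-5p lie below 0 before adjustment, and those of the features under 100 reads and of the miR-187 arms are wide.

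miR-212-3p, the arm that shares its seed with miR-132-3p, had the largest shift relative to its error. It held 247, 152 and 195 CPM in the Ctrl samples and 166, 118 and 119 CPM in the LPS samples. In the CBD samples it stood at 202, 222 and 223 CPM and in the CBD+LPS samples at 159, 95.6 and 116 CPM. The THC samples held 127, 130 and 165 CPM and the THC+LPS samples 194, 116 and 131.8 CPM. CBD+LPS thus lay wholly below CBD, the Ctrl and LPS samples overlapped, and those of THC and THC+LPS overlapped as well. The group means were 198 ± 47.3 CPM in Ctrl, 134 ± 27.4 in LPS, 216 ± 11.6 in CBD, 124 ± 32.3 in CBD+LPS, 141 ± 21.0 in THC and 147.1 ± 41.1 in THC+LPS (SD, n = 3). Over all backgrounds the mean was 135 ± 31.2 CPM with LPS and 185 ± 43.0 CPM without (SD, n = 9). The pooled log2 fold change was -0.44 (SE 0.17), a fold of 0.735 with a 95% interval of 0.578 to 0.934, and its adjusted p from limma was 0.416.

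Of the separate comparisons, CBD+LPS against CBD gave the lowest value for miR-212-3p, a log2 fold change of -0.83 (SE 0.26) or a fold of 0.564 with a 95% interval of 0.385 to 0.826. The unadjusted p from limma was 0.00562, just above the criterion of 0.005 with at least 1.5-fold, and the adjusted p was 0.284. At that criterion 22 features, or 1.61%, were called in this comparison and 0 of the 14 members, with 0 members called by edgeR or DESeq2. At an unadjusted p under 0.05 were 2 members (miR-212-3p and miR-132-5p), beside 10.8% of all features. miR-212-3p met the criterion when sample 22, 23, 26, 27 or 28 was left out, with unadjusted p from limma between 0.00182 and 0.00498. It also met it with edgeR's filterByExpr and with a covariate for samples 22 to 27, the latter with an unadjusted p of 0.0011 and an adjusted p of 0.0749. Over all features, 20 of 645 and 30 of 1363 were called in these settings, and 17 to 53 with single samples left out. The log2 fold change was -0.54 against Ctrl in the LPS group (adjusted p 0.830) and 0.04 for THC+LPS against THC (adjusted p 0.990). Whether the LPS effect differed between backgrounds was tested with the interaction of LPS and cannabinoid, which gave an adjusted p of 0.765 for miR-212-3p. In that test 0.00% of the features and 0 members passed, 82 features and 1 member (miR-9-3p) were at an unadjusted p under 0.05, and edgeR and DESeq2 called 0 and 3 features and 0 members.

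Library composition moved with these values, and depth in part with it. Samples 22, 27, 30 and 36 also had the fewest features with a read, 1016 to 1157 against 1256 or more in the others. Samples 22, 27 and 30 had the fewest reads of the series, 442718 to 541844. The parts of depth and composition were not tested separately. CBD samples 30 and 36 are among the 4 samples with few reads on the 3 hairpins, and in those 4 miR-212-3p stood at 194 to 247 CPM against 95.6 to 202 CPM in the other 14, with 3 of the 4 among the 4 highest of the series. The mean was 1.55 times as high in the 4 samples. With the composition as a covariate the log2 fold change of miR-212-3p was -0.51 for CBD+LPS against CBD (adjusted p 0.662) and -0.33 for pooled LPS (adjusted p 0.373). Without the 4 samples it was -0.74 (adjusted p 0.685) and -0.38 (adjusted p 0.539). This leaves 1 CBD sample, which is assumed to vary like the samples of the other groups. In samples 28 to 39 alone, 2 per group, miR-212-3p passed in both. Its log2 fold change was -1.07 for CBD+LPS against CBD (adjusted p 0.00104) and -0.61 for pooled LPS (adjusted p 0.0432). Over all features, 144 of 1363 were called in this subset for CBD+LPS against CBD and 32 for pooled LPS. Both CBD samples in that subset have few reads on the 3 hairpins and none of its LPS-treated samples does, so that composition and CBD cannot be told apart there. Over the 15 alternative settings that could be applied, the adjusted p of miR-212-3p ranged from 0.00104 to 0.685 for CBD+LPS against CBD and from 0.0432 to 0.571 for pooled LPS, and the direction was the same in each.

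**Figure D2:**
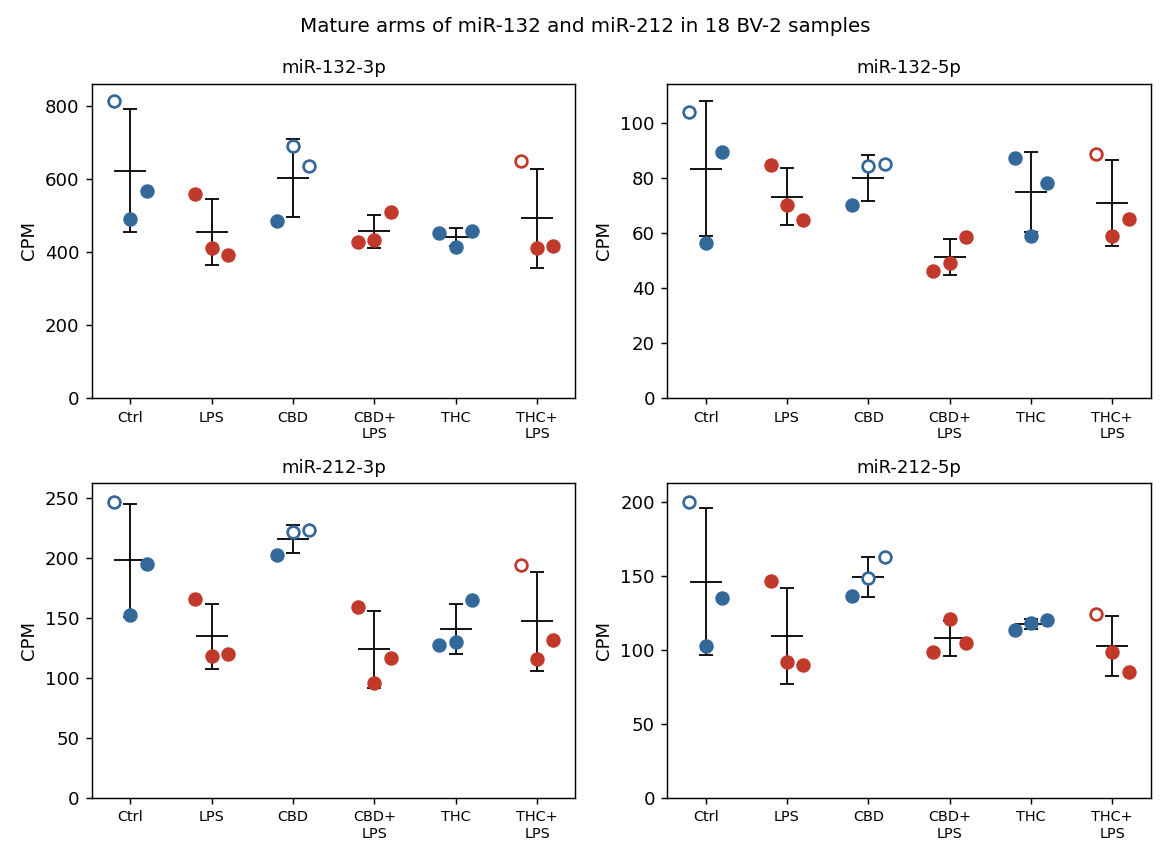
CPM of the mature arms of miR-132 and miR-212 in each sample, by group (blue without LPS, red with LPS). Points are samples in number order, horizontal lines and bars are mean ± SD (n = 3), and open points are samples 22, 27, 30 and 36, with under 1% of reads on the 3 hairpins. In miR-132-3p the open points are the 4 highest values, and miR-212-3p in CBD+LPS, at 95.6 to 159 CPM, lies below CBD.

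miR-132-3p, the most abundant member, followed a similar order with more overlap. It held 812, 489 and 566 CPM in Ctrl and 557, 412 and 392.4 CPM in LPS. It stood at 483, 689 and 635 CPM in CBD and at 427, 432 and 509 CPM in CBD+LPS. In THC it held 451, 413 and 457 CPM and in THC+LPS 649, 410 and 417 CPM. The highest samples of Ctrl, CBD and THC+LPS were again among the 4 with few reads on the 3 hairpins, which hold the 4 highest values of miR-132-3p in the series, 635 to 812 CPM against 392.4 to 566 CPM elsewhere. The pooled log2 fold change with LPS was -0.23 (SE 0.14, adjusted p 0.890, limma), from 555 ± 133 CPM without LPS to 467 ± 86.6 CPM with it (SD, n = 9). Without the 4 samples it was -0.14 (adjusted p 0.785), and with the composition as a covariate -0.12 (adjusted p 0.828). For CBD+LPS against CBD the log2 fold change of miR-132-3p was -0.39 (SE 0.23, adjusted p 0.600), and with that covariate 0.033 (adjusted p 0.997).

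The 5p arms also stood lower in CPM in every CBD+LPS sample than in every CBD sample. miR-132-5p held 70.3, 84.5 and 85.4 CPM in CBD and 46.2, 49.1 and 58.8 CPM in CBD+LPS, with no overlap, a log2 fold change of -0.63 (SE 0.27) and an adjusted p of 0.418. miR-212-5p held 136, 148 and 163 CPM in CBD and 98.1, 121 and 104 CPM in CBD+LPS, again without overlap, with a log2 fold change of -0.47 (SE 0.26) and an adjusted p of 0.564. With miR-212-3p these are 3 of the 14 members in which CBD+LPS lay wholly below CBD in CPM, against 8.95% of the 1363 features. In recovered reads the groups overlapped. CBD and CBD+LPS held 49, 45 and 54 against 41, 37 and 49 reads for miR-132-5p. For miR-212-5p they held 95, 79 and 103 against 87, 91 and 87, and for miR-212-3p 141, 118 and 141 against 141, 72 and 97. The CBD libraries were smaller, at 541844 to 660003 reads against 773522 to 940858, so these unscaled reads are not on a common scale. With the composition as a covariate these fold changes were -0.28 for miR-132-5p (adjusted p 0.895) and -0.10 for miR-212-5p (adjusted p 0.980). Without samples 22, 27, 30 and 36, which leaves 1 CBD sample, they were -0.45 and -0.34. Pooled over backgrounds, the log2 fold change with LPS was -0.36 for miR-212-5p (SE 0.15, adjusted p 0.522) and -0.29 for miR-132-5p (SE 0.16, adjusted p 0.841).

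Summed over the 4 arms, the cluster stood at 1050 ± 287 CPM in Ctrl, 771 ± 160 in LPS, 1047 ± 136 in CBD, 739 ± 45.9 in CBD+LPS, 773 ± 50.3 in THC and 813 ± 210 in THC+LPS (SD, n = 3). The 3p arm made up 83.8% to 90.2% of miR-132 and 44.2% to 61.8% of miR-212 across the 18 samples, so that miR-132 was dominated by its 3p arm and miR-212 was not. Of the reads on the shared seed, miR-212-3p supplied 22.4% ± 2.72 with LPS and 24.98% ± 2.21 without (SD, n = 9). An exact permutation test within backgrounds over 8000 arrangements, two-sided, gave p = 0.0608, and 0.243 after adjustment over the 4 arm ratios examined, which were chosen after the values were seen. The other ratios had p of at least 0.541 by the same exact permutation test. The hairpin features of the pair were scarce, with 63 reads for mir-132 and 76 for mir-212, and their pooled log2 fold changes with LPS were 0.38 and 0.28 (adjusted p 0.927 for each, limma).

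The level of miR-187 differed between samples 22 to 27 and samples 28 to 39, and each group has samples of both kinds. miR-187-3p held 10.6, 71.8 and 30.3 CPM in Ctrl samples 22, 28 and 34, and 13.1, 78.1 and 62.8 CPM in LPS samples 23, 29 and 35. The CBD samples held 10.0, 31.9 and 41.1 CPM and the CBD+LPS samples 12.4, 57.1 and 69.6 CPM. The THC samples held 15.9, 66.1 and 56.7 CPM and the THC+LPS samples 17.8, 46.1 and 64.2 CPM. In each of the 6 groups the sample numbered 22 to 27 was the lowest. All 6 of these samples, at 13.3 ± 3.01 CPM (SD), lay below all of samples 28 to 39, at 56.3 ± 15.7 CPM, a ratio of 4.23. Of the 1363 features 40, or 2.93%, had samples 28 to 39 wholly above samples 22 to 27. The labels give no batch, and the study's methods state that all libraries were sequenced in a common pool.

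The LPS effect on miR-187-3p was not larger than this spread, with a pooled log2 fold change of 0.34 (SE 0.46, adjusted p 0.927, limma). With a covariate for samples 22 to 27 the fold change was the same and the adjusted p 0.560, and in samples 28 to 39 alone it was 0.40 with an adjusted p of 0.494. Over the 15 settings the adjusted p ranged from 0.494 to 0.981. Those settings include the ones for composition, and the pooled log2 fold change of miR-187-3p ran from 0.17 to 0.52 over them. The other arm, miR-187-5p, was also lowest in the sample numbered 22 to 27 in 6 of 6 groups, at 2.43 ± 1.84 CPM against 13.9 ± 8.13 CPM, although at 0 to 5.23 CPM the lower samples were near the level of 3 reads. The 3p arm took between 66.7% and 100% of the reads on both arms. The hairpin mir-187 had 45 reads over all samples and a pooled log2 fold change of 0.46 (SE 0.46, adjusted p 0.927).

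**Figure D3:**
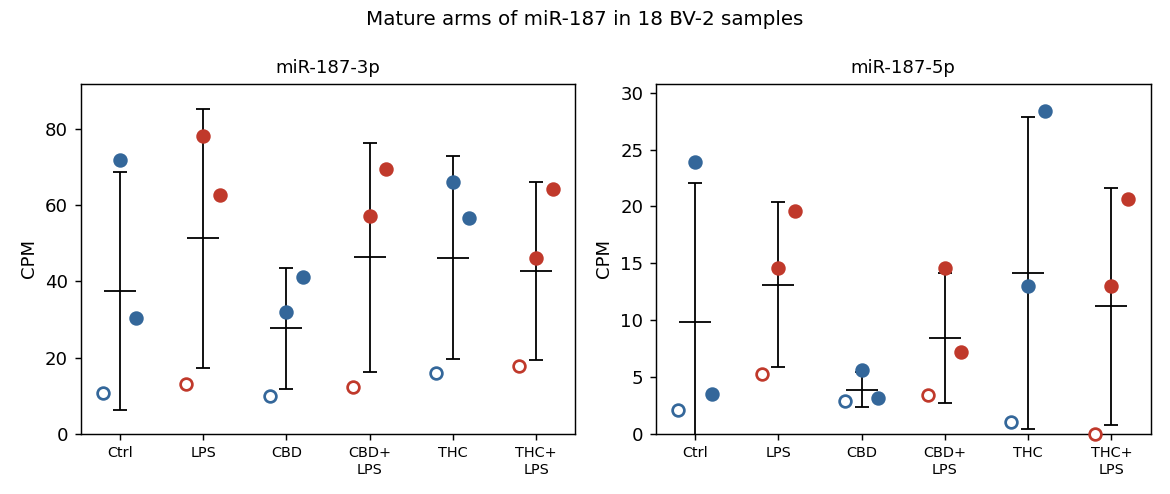
CPM of miR-187-3p and miR-187-5p in each sample, by group (blue without LPS, red with LPS), with mean ± SD (n = 3). Open points are samples 22 to 27, which for miR-187-3p range from 10.0 to 17.8 CPM and lie below every filled point, at 30.3 to 78.1 CPM.

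miR-147 and miR-9 were close to the detection limit. miR-147-3p had 96 reads in total, 52 in the 9 samples with LPS and 44 in the 9 without, and its values ran from 0 to 13.3 CPM. LPS sample 29 held 0 reads, which allows a level of up to 3.97 CPM, while samples 23 and 35 of the same group held 10 and 7. The pooled log2 fold change was -0.26 (SE 0.45), a fold of 0.835 with a 95% interval of 0.435 to 1.60 and an adjusted p of 0.952 from limma. A rise or a fall within this interval is therefore compatible with the data. miR-147-5p had 10 reads with LPS and 5 without, and the hairpin mir-147 had 3 and 5.

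miR-9-5p had 62 reads with LPS and 56 without, a pooled log2 fold change of -0.06 (SE 0.30) and an adjusted p of 0.973. It held 14.9, 13.7 and 10.5 CPM in Ctrl, that is 7, 8 and 9 reads, and 9.15, 6.62 and 5.15 CPM in LPS, that is 7, 5 and 5 reads. The LPS samples lay wholly below Ctrl in CPM, as for 3.82% of the features. The unscaled read numbers touch at 7, in libraries of unlike size (442718 reads in Ctrl sample 22, 742150 in LPS sample 23), and none exceeds 9. LPS against Ctrl gave -0.83 (SE 0.49, adjusted p 0.904) for miR-9-5p. CBD+LPS against CBD and THC+LPS against THC gave 0.57 and 0.10. miR-9-3p had 13 reads in all. It was listed at 0 in every CBD and every THC+LPS sample and held 1, 4 and 1 reads in the THC samples, so that THC+LPS and CBD both lay below THC, as for 5.72% and 10.6% of the features, and 1 sample of the 3 groups, THC sample 31, exceeds the floor of 3 reads. The hairpins mir-9-1, mir-9-2 and mir-9-3 had 10, 1 and 3 reads, with mir-9-1 at 8 reads with LPS and 2 without.

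**Figure D4:**
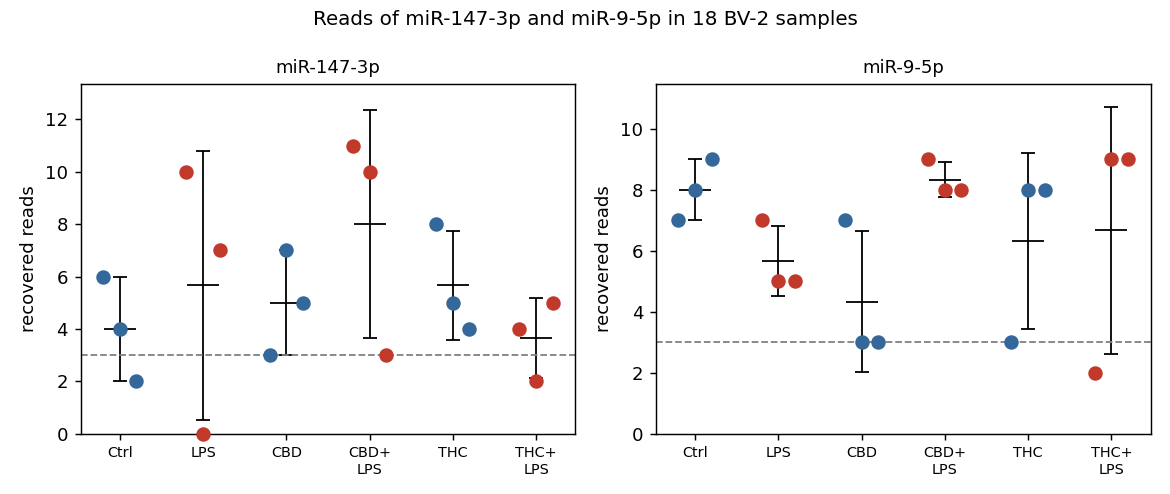
Recovered reads of miR-147-3p and miR-9-5p in each sample, by group (blue without LPS, red with LPS), with mean ± SD (n = 3). The dashed line marks 3 reads, and all points lie between 0 and 11 reads.

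With the cannabinoids alone no member passed either. For CBD against Ctrl, 22 features (1.61%) and 0 members were called, and for THC against Ctrl 6 features (0.440%) and 0 members, with 0 members called by edgeR or DESeq2. At an unadjusted p under 0.05 were 0 members in both, beside 9.17% and 3.37% of all features. miR-212-3p gave 0.15 (SE 0.26) with CBD and -0.47 (SE 0.26) with THC on the log2 scale, and miR-132-3p gave -0.03 (SE 0.23) and -0.47 (SE 0.23). The CBD values changed sign with the setting, at -0.081 for miR-212-3p and -0.34 for miR-132-3p with the composition as a covariate, and at 0.37 and 0.33 in samples 28 to 39 alone. The THC values kept their sign in these settings and were -0.32 and -0.26 with the covariate, and -0.23 and -0.28 in samples 28 to 39. For LPS against Ctrl 21 features (1.54%) and 0 members were called, with 0 members and 5.87% of all features at an unadjusted p under 0.05. For THC+LPS against THC 19 features (1.39%) and 0 members were called, with 1 member, miR-9-3p, at an unadjusted p under 0.05, beside 4.77% of all features. Adding CBD or THC to LPS gave 3 called features each (0.220%) and 0 members. At an unadjusted p under 0.05 were 0 members in both, beside 3.23% (CBD) and 2.35% (THC) of all features. The log2 difference of miR-212-3p was -0.13 (SE 0.26) for CBD+LPS against LPS and 0.11 (SE 0.26) for THC+LPS against LPS. Across the 6 groups the F test passed 24 features (1.76%) and 0 members. In it 1 member, miR-212-3p, was at an unadjusted p under 0.05 (adjusted p 0.511), beside 8.36% of all features. In none of these comparisons did edgeR or DESeq2 call a member.

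At matched dose and time the 2 isomers were compared directly, alone and with LPS. CBD against THC had the most calls of any pair of groups here, 45 features or 3.30%, and 0 of the 14 members. At an unadjusted p under 0.05 were 2 of the 14 members, miR-212-3p and miR-9-3p, beside 221 of the 1363 features, or 16.2%. The level of miR-212-3p was 1.54-fold higher with CBD than with THC (95% interval 1.05 to 2.25, adjusted p 0.241, limma), and that of miR-132-3p 1.35-fold higher (0.962 to 1.91, adjusted p 0.381). In miR-132-3p, miR-212-3p and miR-212-5p all CBD samples lay above all THC samples, as for 10.1% of the features. Of the 3 CBD samples, 2 have few reads on the 3 hairpins, and of the THC samples none. With the composition as a covariate the log2 difference went from 0.62 to 0.24 for miR-212-3p (adjusted p 0.899) and from 0.44 to -0.076 for miR-132-3p (adjusted p 0.951), and for miR-212-5p it went from 0.34 to -0.10 (adjusted p 0.951). Without the 4 samples of that kind it was 0.53 for miR-212-3p and 0.14 for miR-132-3p, again with 1 CBD sample left. In samples 28 to 39 alone, where both CBD samples have few reads on the 3 hairpins, miR-132-3p passed, at 0.61 (adjusted p 0.00679). In that subset 158 of the 1363 features were called. Over the 15 settings the adjusted p of miR-132-3p ranged from 0.00679 to 0.951. With LPS present the compounds gave 0.946-fold for miR-132-3p (CBD+LPS over THC+LPS, 95% interval 0.672 to 1.33) and 0.844-fold for miR-212-3p (0.576 to 1.24). In that comparison 2 features (0.147%) and 0 members were called, with 0 members and 2.64% of all features at an unadjusted p under 0.05.

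The features whose pattern over the 18 samples was most like that of the main arms were sought among the 654 features with at least 100 reads that belong to none of the 5 families, by Pearson's r of log2(CPM + 1). For miR-132-3p they were miR-128-3p (r = 0.92), mir-351 (0.91) and miR-92a-3p (0.86), and without the 4 samples of unlike composition these were 0.69, 0.77 and 0.56 (n = 14). For miR-212-3p they were miR-128-3p (0.90), miR-25-5p (0.90) and miR-92a-3p (0.88), and without those samples 0.81, 0.79 and 0.73. Between miR-132-3p and miR-212-3p themselves r was 0.83 over all samples and 0.61 without the 4. For miR-187-3p, whose samples fall into separate sets, the most alike were miR-210-3p, miR-1843a-5p and miR-100-5p, with r of 0.84, 0.87 and 0.79 within samples 28 to 39 (n = 12) and -0.32, -0.26 and 0.30 within samples 22 to 27 (n = 6). For miR-9-5p no feature reached 0.6, the highest being mir-1249 at 0.53. Points share library, depth and composition, and these correlations are descriptions. miR-128-3p is also in the list of neuronal markers, together with miR-124-3p and miR-129-5p. All 3 were detected, miR-124-3p with 4 reads in total, and the summed level of the list was 484 to 672 CPM in Ctrl, 451 to 556 in LPS, 565 to 662 in CBD, 495 to 570 in CBD+LPS, 469 to 551 in THC and 446 to 631 in THC+LPS. Its part in the levels of miR-132 and miR-212 was not tested.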

How the data were processed

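Small RNA of 18 BV-2 samples, 3 in each of 6 groups, was analysed, with each group taken from the sample's label. By the study's methods, the authors aligned reads to mouse miRBase with BWA (up to 10 mappings allowed for a read) and counted known miRNAs. The versions, the miRBase release used for the alignment and the treatment of reads with several mappings are not given in the sources used here (a release is named there for target prediction alone), and such reads could be shared between the miR-9 loci. The values the authors deposited are a signal, namely reads over the TMM-corrected library size from edgeR, scaled to CPM. Within a tolerance of 0.001 each value was an integer number of the sample's smallest step, which gave back whole reads for 100% of the values.

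Values were taken as log2(CPM + 1) and tested with limma 3.58.1 (mean-variance trend, R 4.3.3) on the 1363 features that reached 10 reads in the series. edgeR 4.0.16 (quasi-likelihood) and DESeq2 1.42.0 ran on the recovered reads as alternatives. Contrasts between groups were called at the study's criterion, an unadjusted p from limma of at most 0.005 and 1.5-fold or more (the study does not state whether its p is adjusted), and pooled LPS, the F test and the interaction at an adjusted p of at most 0.1 (Benjamini-Hochberg over all tested features). Fold changes of features with few reads are understated on this scale. Members and lists were chosen with earlier results of these data known. Likeness was ranked among features with at least 100 reads, and 3 were named per main arm. The setting without samples 22, 27, 30 and 36 was chosen after seeing the data.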

Additional observations from a re-analysis of the deposited data

How the results depend on the processing

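In 12 of the 16 alternative settings (other scalings, filters, pseudocounts, tools, covariates and subsets, where the one without samples 22, 27, 30 and 36 was chosen after seeing the data) 0 members were called in every comparison, as in the reported fits. For CBD+LPS against CBD, 1 member (miR-212-3p) was called with edgeR's filterByExpr, with a covariate for samples 22 to 27 and in samples 28 to 39 alone. Over all features these settings called 20 of 645, 30 of 1363 and 144 of 1363. In samples 28 to 39 alone, 1 member was called for pooled LPS (miR-212-3p), 1 for CBD against THC (miR-132-3p) and 3 in the F test (miR-132-3p, miR-212-3p and miR-212-5p). Over all features, 32, 158 and 248 of 1363 were called there. For CBD against Ctrl, 1 member (mir-132, 63 reads) was called with the composition covariate, where 38 of 1363 features were called. The causes were not tested. With each sample left out in turn, the count ran from 0 to 1 for CBD+LPS against CBD and from 0 to 1 for CBD against THC. Over all features the counts then ran from 17 to 53 and from 18 to 88. miR-212-3p was called for CBD+LPS against CBD without sample 22, 23, 26, 27 or 28, with adjusted p between 0.113 and 0.293, and the hairpin mir-187 in both comparisons without CBD sample 36.

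The pooled LPS fold change reversed for mir-132 in samples 28 to 39 alone (-0.013). With single samples left out it ran from -0.207 to 0.061 for miR-9-5p (above 0 without sample 22, 27, 28, 29, 35 or 37), from -0.459 to 0.086 for miR-147-3p (above 0 without sample 29) and from -0.359 to 0.033 for miR-9-3p (above 0 without sample 31). Scaling to miR-103-3p and miR-191-5p shifted the median of all features by -0.15 for pooled LPS and by -0.31 for THC+LPS against THC, and library size alone by -0.11 and -0.15. No paired analysis was run. No 2 groups share a sample number. The numbers run through the 6 groups in a repeating order, but the labels do not say that samples with consecutive numbers were handled together. Of such sets, only a covariate for samples 22 to 27 was fitted, with 32 features called for pooled LPS and 30 for CBD+LPS against CBD. Counts over all features ran from 7 to 32 for pooled LPS (21 as reported), 12 to 248 for the F test (24), 0 to 111 for the interaction (0), 6 to 37 for LPS against Ctrl (21), 11 to 144 for CBD+LPS against CBD (22), 7 to 24 for THC+LPS against THC (19), 9 to 153 for CBD against Ctrl (22), 0 to 13 for THC against Ctrl (6), 1 to 7 for CBD+LPS against LPS (3), 1 to 5 for THC+LPS against LPS (3), 14 to 158 for CBD against THC (45) and 0 to 4 for CBD+LPS against THC+LPS (2). Among tested members under 100 reads the SE of the pooled LPS effect ran from 0.33 (mir-212) to 0.46 (mir-187). It was 0.46 for miR-187-3p and 0.62 for miR-187-5p, which hold more reads. Moderate changes of these members may therefore not show here, and the smallest change that could show was not computed.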
